A study of Mus musculus with 10 samples.

Results

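The genes described here are the nuclear-encoded subunits of the 5 enzyme complexes of mitochondrial oxidative phosphorylation. They were taken as the protein-coding genes of the GENCODE M21 annotation whose symbols start with Nduf followed by a, b, c, s or v and a digit, Uqcr, Atp5, or Cox with a digit from 4 to 8 and a letter from a to c, together with Sdha, Sdhb, Sdhc and Sdhd. The rule gave 83 of the 55385 genes in the deposited files, namely 37 of complex I, 4 of complex II, 8 of complex III, 16 of complex IV and 18 of complex V. A further 12 genes with matching symbols were not protein coding and were left out. The cells were WT31, a mouse melanoma line from Tyr::NrasQ61K/°; INK4a-/- mice, and WT31_P5IV, the subline made from it by 5 rounds of intravenous injection and recovery from liver metastases. In this genotype mutant Nras is expressed from the tyrosinase promoter, that is in the melanocyte lineage, and INK4a is lost, and both groups share it. Each group was 5 libraries of untreated cells grown in culture to sub-confluence, labelled as biological replicates. WT31_P5IV is 1 subline, so the comparison is between this subline and its parent.

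The respiratory chain moves electrons from NADH (complex I) and succinate (complex II) through ubiquinone to complex III, from there on cytochrome c to complex IV, and so to oxygen. Complexes I, III and IV pump protons across the inner mitochondrial membrane, and complex V, the ATP synthase, lets them flow back and makes ATP. All complexes but complex II mix subunits encoded in the nucleus with a few encoded in mitochondrial DNA, so that 2 genomes supply each of them. In melanoma, the use of oxidative phosphorylation is known to vary between lines and is linked to the transcriptional coactivator PGC-1α, the product of Ppargc1a.

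Libraries held 24825671 to 25750639 estimated counts in WT31 and 24255389 to 25547694 in WT31_P5IV, and 3 counts, used as the limit of detection, came to 0.114 to 0.129 CPM, the counts scaled to the size of the library. Markers of the melanocyte lineage were all over that limit (7 of 7) and summed to 17046 to 18443 CPM in WT31 and 22228 to 25729 CPM in WT31_P5IV. Of these, Dct, Pmel and Tyr were higher in WT31_P5IV, Tyrp1 and Sox10 were lower, and Mlana and Mitf did not pass the test described below. Markers of other cells of the liver were low. Tf, also planned as a hepatocyte marker, was left out of the sums and its level is not given. The 6 hepatocyte markers kept summed to 0.606 to 0.871 CPM in WT31 and 0.702 to 1.43 CPM in WT31_P5IV, and the 6 endothelial to 0.275 to 0.492 and 0.201 to 0.505 CPM. Those of macrophages and leukocytes, mostly Cd68, summed to 0.757 to 2.18 CPM in WT31 and were higher in each WT31_P5IV library, at 3.38 to 5.00 CPM. Those of stellate cells and fibroblasts summed to 1.97 to 2.63 and 3.12 to 3.62 CPM, with Col1a1 and Acta2 higher in each WT31_P5IV library than in any WT31 library, while for Des, Lrat, Dcn and Pdgfrb the groups overlapped. The part of such cells in the results was not tested. Serpina1a and Fgb, Cd14 and Clec4f, and Cdh5 and Lyve1 had no count in any library.

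The subunit genes differed between WT31_P5IV and WT31 by small amounts and in both directions. Of the 83, 75 passed the filter on low counts. 39 of these were higher in WT31_P5IV, 16 were lower and 20 did not pass the test (edgeR quasi-likelihood test, Benjamini-Hochberg adjusted p under 0.05 over all 13620 tested genes, as for every adjusted p given here). Of all tested genes 68.5% passed it, 34.6% higher and 33.9% lower, against 73.3% of the subunit genes, 52% higher and 21.3% lower. Changes of at least 1.5-fold were found in 3 subunit genes, Cox6a1 and Ndufb8 higher and Atp5j lower, while 22.1% of all tested genes passed that limit, 14.1% higher and 8.02% lower. The median absolute log2 fold change was 0.27 over the 55 subunit genes called and 0.41 over all genes called. For 34 of the 75, all libraries of 1 group were above all of the other (23 higher and 11 lower in the subline), against 54.1% of all tested genes (26.6% higher and 27.5% lower). The median log2 fold change was 0.13 over the subunit genes and 0.01 over all tested genes. It was 0.08 over the subunit genes without WT31 library 2, and 0.07 against 0.04 over all genes with limma voom without scaling or filter. Fewer cells of a kind and less RNA per cell cannot be told apart in these bulk libraries.

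**Figure D1:**
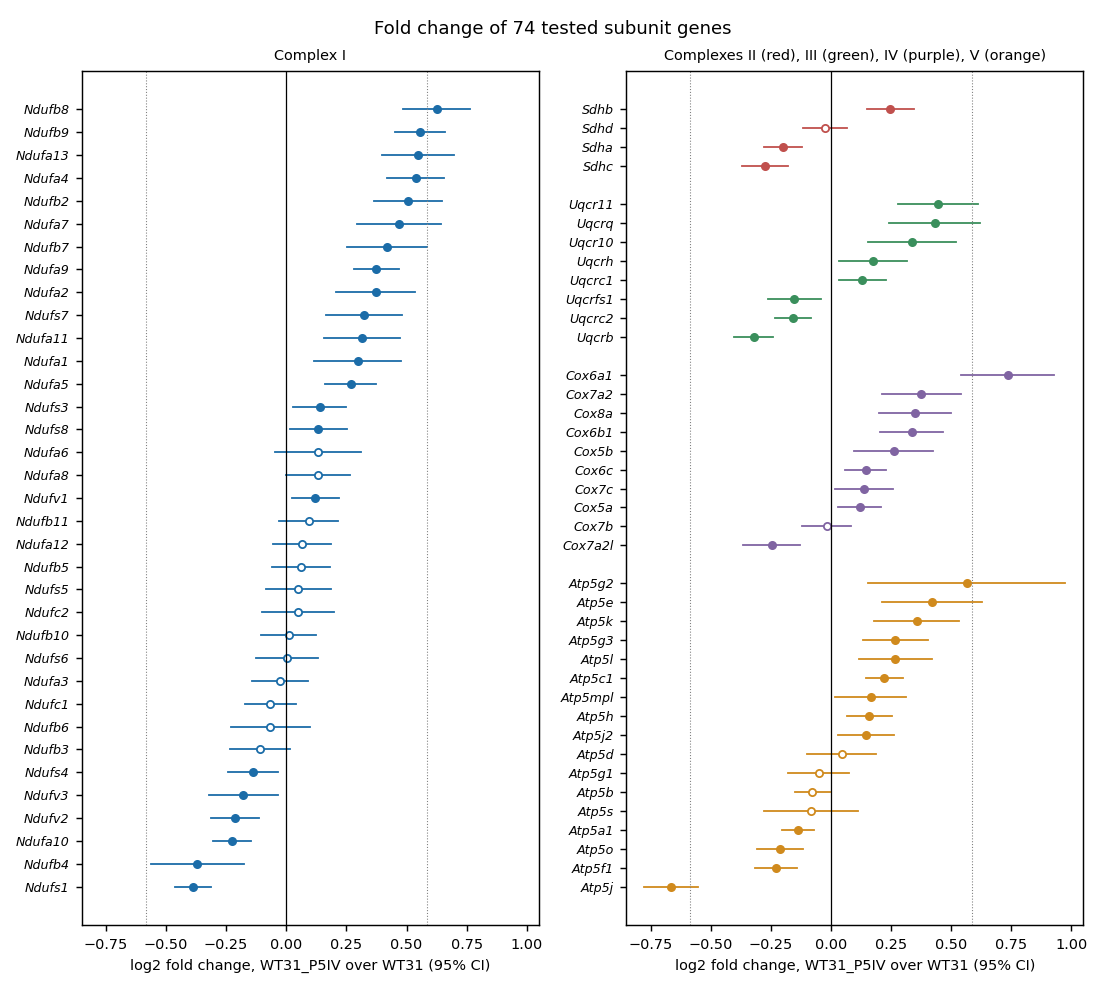
Log2 fold change of 74 tested subunit genes (points; WT31_P5IV over WT31, edgeR) with its 95% confidence interval (lines), ordered within each complex; filled points passed the test, open points did not, and dotted lines mark 1.5-fold. 71 of the 74 genes lie inside the dotted lines, and every complex holds genes on both sides of 0.

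The split between higher and lower depended on the scale. On TPM, in which counts are divided by transcript length, and with limma, 16 subunit genes were higher and 33 lower, and the median of all tested genes stood at -0.14. The medians of complexes I, III and V were below 0 on that scale (-0.07, -0.02 and -0.07) and above that of all genes. Of the 39 genes higher in the edgeR test, 16 kept that call on TPM, 22 were not called and 1, Cox6c, was called lower (-0.12). The sign turned for 9 of the 39, which were Ndufs8, Uqcrh, Uqcrc1, Cox6c, Cox7c, Cox5a, Atp5mpl, Atp5h and Atp5j2, to between -0.12 and -0.01 on TPM. Of the 20 genes not called in the edgeR test, 16 were called lower on TPM, among them Sdhd, Cox7b (-0.15), Atp5b (-0.23) and Atp5g1 (-0.26). Of the 39, those that kept the higher call were 10 of complex I, 2 of complex III (Uqcr11 and Uqcrq) and 4 of complex IV (Cox6a1, Cox7a2, Cox8a and Cox6b1). The 9 higher genes of complex V and Sdhb were all among those that did not, as were Ndufs3, Ndufs8, Ndufv1, Ndufa5, Uqcr10 and Uqcrh. TPM sum to the same total in each library, and the 13 mitochondrially encoded subunits took up 145310 ± 9021 TPM in WT31 and 240760 ± 14655 in WT31_P5IV (SD, n = 5 each). After TMM scaling of the TPM, which sets the bulk of genes level, the counts were 31 higher and 17 lower. The 16 genes lower in the edgeR test were also called lower on TPM, and 15 of them on scaled TPM. Summed over all 83 genes, the level was 25069 ± 1359 TPM in WT31 and 24998 ± 795 TPM in WT31_P5IV (SD, n = 5 each). By complex, the sum differed by 1.23% for complex I, -14.6% for complex II, 0.842% for complex III, 10.1% for complex IV and -7.06% for complex V. Only for complex II did the libraries of the groups not overlap in this sum of TPM, with 629 to 674 TPM in WT31 and 536 to 576 TPM in WT31_P5IV. On CPM, complex IV was also apart, by the median over its tested genes of log2 CPM minus the WT31 mean. This was between -0.17 and 0.14 in the WT31 libraries and between 0.18 and 0.27 in the WT31_P5IV libraries.

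WT31 libraries 2 and 3 stood apart from the other WT31 libraries on these genes. They were the lowest pair of the 5 for 66 of the 75 subunit genes (88%), and for 26.9% of all other tested genes. This covered 37 of the 39 genes higher in WT31_P5IV and 12 of the 16 lower. Along the second principal component of all tested genes they were at -17.94 and -16.55, WT31 library 1 was at 3.07 and libraries 4 and 5 were at 11.88 and 20.95, so that the WT31 libraries were spread widely to both sides. The WT31_P5IV libraries were between -8.42 (library 3) and 9.02 (library 4). Without the 3 libraries lowest on that component (WT31 2 and 3 and WT31_P5IV 3), a choice made after the data were seen, 29 subunit genes were higher and 21 lower, and the median fell to 0.04. The 21 included all 16 of the full comparison, and the 29 were all among the 39.

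**Figure D2:**
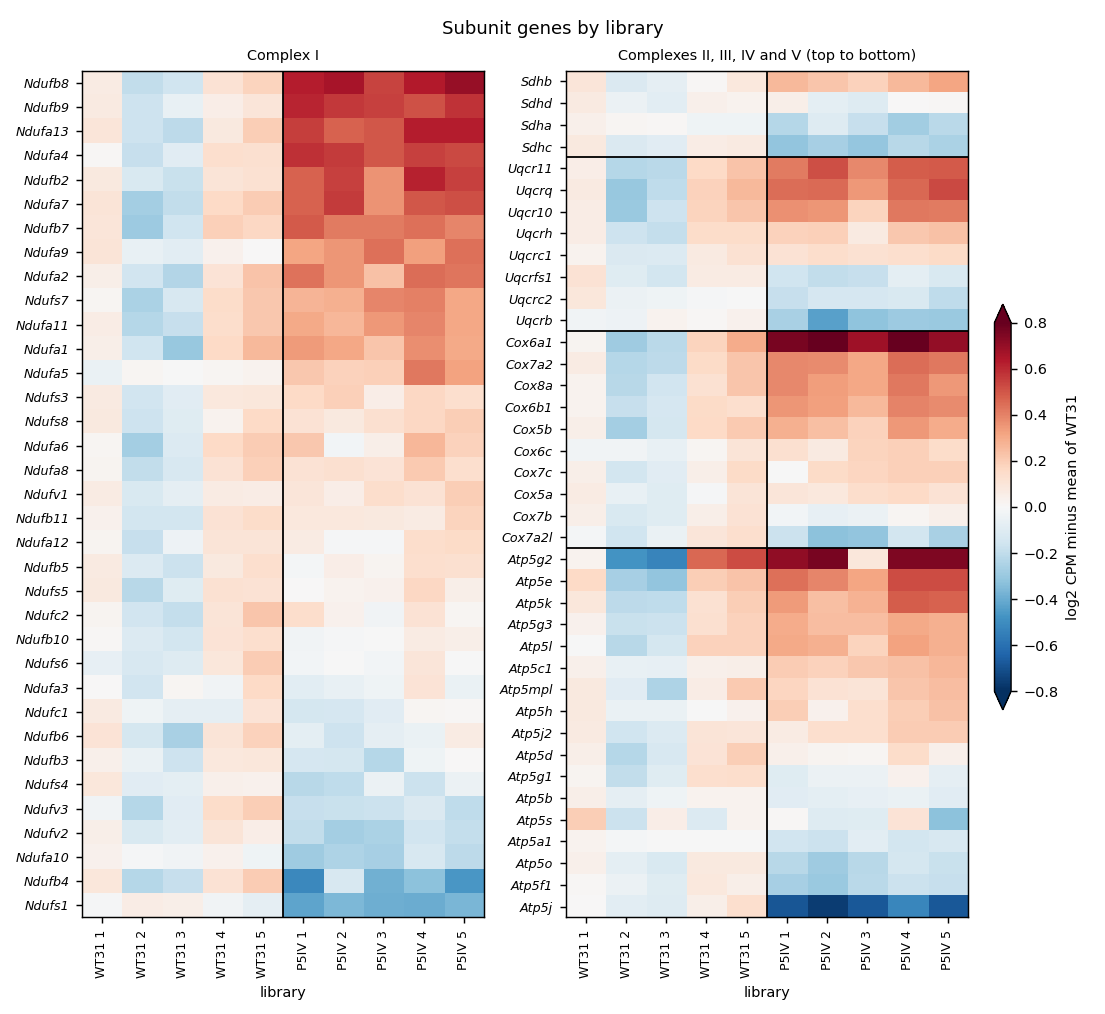
Log2 CPM of 74 tested subunit genes in each of the 10 libraries, relative to the gene's mean in the WT31 libraries (color; values beyond 0.8 take the end color). WT31 libraries 2 and 3 are below the other WT31 libraries for most genes, and the genes at the foot of complexes I and V are lower in all 5 WT31_P5IV libraries.

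Most subunit genes were among the more abundant transcripts, with a median rank at the 95.3rd percentile of tested genes in WT31. The median level in WT31 was 172 TPM for complex I, 153 for complex II, 455 for complex III, 359 for complex IV and 498 for complex V. The highest was Atp5b, the catalytic β subunit of the ATP synthase, at 1737 ± 55.4 TPM in WT31 and 1479 ± 30.4 TPM in WT31_P5IV. Cox8a, a small subunit of complex IV, followed at 1296 ± 121 and 1452 ± 43.1 TPM, and Cox6a1 at 857 ± 117 and 1254 ± 30.1 TPM. At the low end, Atp5s, the coupling factor B gene, was at 10.1 ± 0.717 and 8.72 ± 0.450 TPM, and the lowest gene of complex I that was tested, Ndufb4, at 66.2 ± 11.3 and 48.6 ± 2.87 TPM (SD, n = 5 each).

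**Figure D3:**
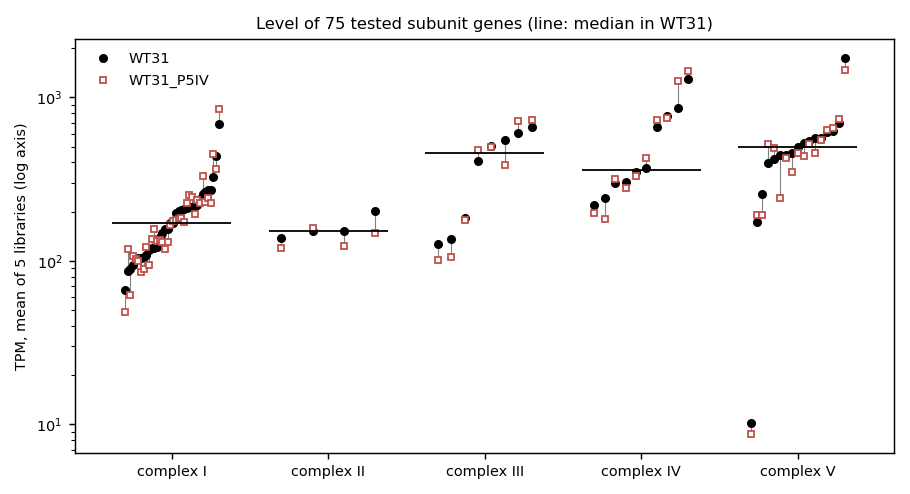
Mean TPM over 5 libraries (log axis) of the tested subunit genes by complex, in WT31 (filled circles) and WT31_P5IV (open squares), ordered by level, with a line at the WT31 median of each complex. The medians are lower for complexes I and II (172 and 153 TPM) than for complexes III, IV and V (455, 359 and 498 TPM).

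Transcription of many of these genes is known to involve the factors NRF1, GABP (an ETS factor also called NRF2) and YY1. Promoters of 68 of the 83 genes were found in RefSeq on GRCm38.p6, each as the stretch from 250 bases before to 50 bases after the start of the gene, with the first listed start where there were several. On both strands, GCGCANGCG (NRF1) was present in 27.9% of them, CCGGAAG (ETS) in 22.1% and AAGATGGCG (YY1) in 8.82%, against 8.83%, 11.9% and 1.94% of the promoters of 17491 protein-coding genes. At least 1 of the 3 was present in 48.5% and 20.3%. By the edgeR calls, promoters were found for 34 of the genes higher in WT31_P5IV, 11 of those lower and 19 of those not called. The ETS letters were in 13, 0 and 2 of these promoters, and the NRF1 letters in 10, 3 and 6. On TPM, both genes not called that carry the ETS letters were called lower, and most of the 13 did not keep the higher call. These counts describe letters in a window and were not tested.

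The 250 bases before the start are given for the gene with the largest rise (Cox6a1), for a gene of complex III that was higher and carries the ETS letters alone (Uqcrh), for a gene that was lower and carries the NRF1 letters (Sdha) and for the gene with the largest fall, where the window held none of the 3 (Atp5j). All run 5′ to 3′ on the minus strand of GRCm38.p6, and capitals mark matches to the motifs on either strand, so that a longer run of capitals is an overlap of matches on both strands.
Cox6a1, chr5:115348959-115349208: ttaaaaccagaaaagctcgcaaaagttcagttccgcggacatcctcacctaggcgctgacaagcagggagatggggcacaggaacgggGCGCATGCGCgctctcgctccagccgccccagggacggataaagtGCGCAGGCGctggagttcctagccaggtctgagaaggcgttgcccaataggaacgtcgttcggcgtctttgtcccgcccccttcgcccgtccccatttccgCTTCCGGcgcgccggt
Uqcrh, chr4:116075071-116075320: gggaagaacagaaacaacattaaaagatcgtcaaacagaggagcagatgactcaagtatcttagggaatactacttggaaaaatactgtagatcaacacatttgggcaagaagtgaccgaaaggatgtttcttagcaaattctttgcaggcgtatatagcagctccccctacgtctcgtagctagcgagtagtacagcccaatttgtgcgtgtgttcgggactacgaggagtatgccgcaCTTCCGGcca
Sdha, chr13:74350241-74350490: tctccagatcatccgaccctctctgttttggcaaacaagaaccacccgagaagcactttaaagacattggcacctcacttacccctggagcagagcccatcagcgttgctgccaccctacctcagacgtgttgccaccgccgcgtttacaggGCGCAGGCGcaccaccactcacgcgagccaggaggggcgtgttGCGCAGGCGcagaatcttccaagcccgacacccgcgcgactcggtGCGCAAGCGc
Atp5j, chr16:84835626-84835875: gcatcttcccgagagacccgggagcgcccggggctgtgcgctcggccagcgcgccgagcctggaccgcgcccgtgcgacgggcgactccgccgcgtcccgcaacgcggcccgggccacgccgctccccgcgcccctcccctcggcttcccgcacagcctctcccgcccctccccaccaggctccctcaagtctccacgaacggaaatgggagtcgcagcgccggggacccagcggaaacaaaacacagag

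Complex I, the NADH dehydrogenase, had 36 tested genes, of which 16 were higher in WT31_P5IV, 6 were lower and 14 did not pass the test, with a median log2 fold change of 0.11. That median was 0.05 without WT31 library 2, 0.07 without WT31 library 3 and 0.01 without the 3 libraries lowest on the second component. The largest rises were in supernumerary subunits, which surround the catalytic core. Ndufb8 (chr19:44548572-44555440) was at 114, 95.3, 97.7, 118 and 124 CPM in WT31 libraries 1 to 5 and at 169, 172, 159, 169 and 177 CPM in the WT31_P5IV libraries. The groups did not overlap, and the log2 fold change was 0.62 (SE 0.07, adjusted p = 8.82e-07). Ndufb9 was between 77.7 and 93.4 CPM in WT31 and between 124 and 133 CPM in WT31_P5IV, a log2 fold change of 0.56 (SE 0.05), although 19.5% of its exon bases lie under another gene of the same strand. Ndufa13, also known as GRIM-19, was between 73.3 and 97.2 CPM and between 118 and 131 CPM, a log2 fold change of 0.55 (SE 0.07). Ndufa4, which is now known as a subunit of complex IV despite its symbol, followed at 155 to 193 CPM and 248 to 264 CPM (log2 fold change 0.54, SE 0.05). None of these 4 genes had overlapping groups.

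The 7 nuclear-encoded core subunits of complex I, which carry the flavin and the iron-sulfur clusters, went in both directions, with 4 higher and 2 lower. Ndufs1, the 75 kDa subunit with several of the clusters (chr1:63143596-63176833), was at 134, 141, 140, 133 and 129 CPM in WT31 and at 101, 105, 103, 103 and 105 CPM in WT31_P5IV. Here WT31 libraries 2 and 3 were the highest of WT31 and not the lowest, and the groups did not overlap. The log2 fold change was -0.39 (SE 0.03, adjusted p = 1.59e-07), the largest fall in complex I. Ndufv2 fell from 87.0 to 102 CPM in WT31 to 78.2 to 85.2 CPM in WT31_P5IV (log2 fold change -0.21, SE 0.05, adjusted p = 0.000898). In contrast, Ndufs7, which holds the last cluster before ubiquinone, rose from 33.5 to 46.3 CPM to 48.2 to 52.7 CPM (log2 fold change 0.32, SE 0.07, adjusted p = 0.00121). The calls of Ndufs3, Ndufs8 and Ndufv1 were close to the threshold (log2 fold changes 0.14, 0.13 and 0.12, adjusted p = 0.026, 0.0426 and 0.0298). With each of the 10 libraries left out in turn, the call was lost for Ndufs3 in 5 of the 10 fits, for Ndufs8 in 7 and for Ndufv1 in 5. All 3 lost it without WT31 library 2 (0.09, 0.08 and 0.08), without WT31 library 3 (0.10, 0.10 and 0.09) and without WT31_P5IV library 4 (0.13, 0.12 and 0.12).

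The other 4 genes of complex I that were lower were supernumerary, namely Ndufa10, Ndufb4, Ndufs4 (-0.14, adjusted p = 0.0215) and Ndufv3 (-0.18, adjusted p = 0.0272). Ndufs4 lost the call without WT31_P5IV library 1 (-0.12), Ndufv3 without WT31_P5IV library 5 (-0.18), and both under upper-quartile scaling (-0.11 and -0.15). Ndufa10 was between 129 and 135 CPM in WT31 and between 108 and 120 CPM in WT31_P5IV, with no overlap (log2 fold change -0.23, SE 0.04, adjusted p = 7.17e-05). Ndufb4 was at 30.8, 24.7, 25.5, 31.4 and 33.3 CPM in WT31 and at 20.2, 26.4, 22.1, 23.1 and 20.9 CPM in WT31_P5IV, so that WT31_P5IV library 2 was above WT31 libraries 2 and 3. Its log2 fold change was -0.37 (SE 0.09, adjusted p = 0.00209). Of its 31-base words, the unit in which kallisto compares reads with transcripts, 19.1% also occur in Ndufb4c, a pseudogene with 42.0 ± 3.45 CPM in the parental line and 37.3 ± 2.80 CPM in the subline. With the counts of both added, the log2 fold change was -0.25 (SE 0.06, adjusted p = 0.0021).

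Complex II, the succinate dehydrogenase, is the complex with no mitochondrially encoded subunit and is also an enzyme of the citrate cycle. 1 of its 4 genes was higher in WT31_P5IV and 2 were lower, with a median log2 fold change of -0.11. Sdha, the flavoprotein that oxidizes succinate (chr13:74322254-74350280), was at 279, 274, 273, 265 and 265 CPM in WT31 and at 231, 253, 238, 224 and 234 CPM in WT31_P5IV. The groups did not overlap and the log2 fold change was -0.20 (SE 0.04, adjusted p = 0.000228). Sdhc, a membrane anchor (chr1:171127165-171150603), was at 154, 135, 137, 152 and 154 CPM in WT31 and at 118, 122, 118, 125 and 122 CPM in WT31_P5IV, also with no overlap (log2 fold change -0.28, SE 0.04, adjusted p = 6.9e-05). Sdhb, the iron-sulfur subunit, went the other way, from 103, 88.9, 91.8, 97.0 and 102 CPM to 116, 112, 110, 116 and 120 CPM (log2 fold change 0.25, SE 0.05, adjusted p = 0.000243). The second anchor gene, Sdhd, was between 90.2 and 101 CPM in WT31 and between 89.4 and 99.1 CPM in WT31_P5IV and did not pass the test (log2 fold change -0.03, 95% confidence interval -0.11 to 0.06). On TPM, Sdhb no longer passed the test (0.07) and Sdhd was called lower (-0.20).

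All 8 genes of complex III, the cytochrome bc1 complex, passed the test, 5 higher and 3 lower, with a median of 0.15. Without WT31 library 2, or without library 3, 3 were higher and 3 lower. The small subunits Uqcr11, Uqcrq and Uqcr10 had the largest rises. Uqcr11 was at 105, 86.6, 87.5, 113 and 119 CPM in WT31 and at 135, 145, 132, 142 and 142 CPM in WT31_P5IV (log2 fold change 0.45, SE 0.08, adjusted p = 0.000138). Uqcrq rose from 85.2 to 126 CPM in WT31 to 134 to 152 CPM in WT31_P5IV (0.43, SE 0.09, adjusted p = 0.000562). For both the groups did not overlap, while for Uqcr10 WT31_P5IV library 3 at 121.9 CPM was below WT31 library 5 at 125.5 CPM (0.34, SE 0.09, adjusted p = 0.00285). The largest fall was in Uqcrb, a small subunit near the ubiquinone site (chr13:66900617-66905378). It was at 122, 121, 128, 126 and 128 CPM in WT31 and at 104, 92.5, 99.8, 102 and 102 CPM in WT31_P5IV, with no overlap (-0.32, SE 0.04, adjusted p = 3.17e-06). Uqcrc2, a core protein, fell by 0.16 on the log2 scale (SE 0.04, adjusted p = 0.0012), with 19.8% of its exon bases under a gene of the opposite strand. Uqcrfs1, the Rieske iron-sulfur protein that passes electrons to cytochrome c1, fell by 0.15 (SE 0.05, adjusted p = 0.0161) with overlapping groups, and its call was lost under upper-quartile scaling (-0.12). Uqcrh and Uqcrc1 were higher by 0.17 and 0.13, and both calls were lost without WT31 library 2 (0.12 and 0.09) and without WT31 library 3 (0.12 and 0.09). Uqcrh lost it in 6 of the 10 fits with 1 library left out.

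Complex IV, the cytochrome c oxidase, had the highest share of genes that rose, 8 of 10 tested with 1 lower, and the highest median, 0.20. Its catalytic subunits are mitochondrially encoded, so that all of its genes in the rule code for the subunits around them. Without WT31 library 2, or without library 3, 6 genes were higher and 1 lower. Without the 3 libraries lowest on the second component, 5 were higher and 1 lower, and on TPM 4 were higher and 3 lower. With each of the 10 libraries left out in turn, Cox7c lost its call in 8 of the fits and Cox5a in 5. Cox6a1 (ENSMUSG00000041697.8, chr5:115345642-115348981), the form of subunit VIa found outside heart and skeletal muscle, had the largest rise of all 75 genes. It was at 217, 176, 185, 243 and 263 CPM in WT31 and at 364, 375, 344, 373 and 349 CPM in WT31_P5IV. The groups did not overlap, and the log2 fold change was 0.73 (SE 0.09, adjusted p = 4.02e-06), a ratio of 1.66. Without the 3 libraries lowest on the second component it was 0.59. Cox7a2 rose from 89.7 to 122 CPM to 130 to 143 CPM (0.38, SE 0.08) and Cox8a from 264 to 359 CPM to 380 to 411 CPM (0.35, SE 0.07). Cox6b1 was next at 0.34 (SE 0.06). Cox7a2l, also known as SCAF1, which joins complexes III and IV in supercomplexes, was the gene of complex IV that was lower, from 128 to 157 CPM to 114 to 129 CPM (-0.25, SE 0.06, adjusted p = 0.00119), with overlapping groups. Cox7b did not pass the test (-0.02, 95% confidence interval -0.12 to 0.08).

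Several subunits of complex IV have a second form that is known from heart and skeletal muscle or from testis. These 6 genes had too few counts to be tested, and the common forms made up nearly all of the summed TPM. Cox7a1, the muscle partner of Cox7a2, had 1 to 9 counts in WT31 and 5 to 9 in WT31_P5IV, which was 0.314% ± 0.199 and 0.405% ± 0.105 of the TPM of the pair (SD, n = 5 each). Cox7b2, the testis partner of Cox7b, had 0 counts in each WT31 library and 0 to 4 counts in WT31_P5IV. Cox6a2 and Cox8c had 0 counts in all 10 libraries, which allows up to 0.114 to 0.129 CPM in a library, and these limits cover counting error only. Cox6b2 held 0.0357% and 0.0575% of the pair with Cox6b1, and Cox8b 0 and 0.00457% of the TPM of the Cox8 genes. In complex I, Ndufa4l2, which is known to replace Ndufa4 under low oxygen, held 0.0708% ± 0.0301 in WT31 and 0.0801% ± 0.0377 in WT31_P5IV. The eighth untested gene was a second identifier with the symbol Atp5o, on a read-through locus.

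Complex V had 17 tested genes, 9 higher and 4 lower, with a median of 0.15, which was 0.10 without WT31 library 2 and 0.09 without WT31 library 3. Assigned to sectors of the enzyme after the values had been seen, the 5 genes of the F1 head and central stalk had 2 higher and 1 lower, the 3 of the c ring 2 and 0, the 4 other membrane subunits 4 and 0, and the 4 tested of the peripheral stalk 1 and 3. Among the other membrane subunits, Atp5mpl lost its call in 8 of the 10 fits with 1 library left out and Atp5j2 in 4. In the head, Atp5a1, the α subunit, was between 845 and 874 CPM in WT31 and between 761 and 806 CPM in WT31_P5IV, with no overlap (log2 fold change -0.14, SE 0.03, adjusted p = 0.0013). Atp5b, the β subunit, was at 1687, 1553, 1596, 1668 and 1662 CPM in WT31 and at 1530, 1544, 1561, 1572 and 1533 CPM in WT31_P5IV, and did not pass the test (-0.08, adjusted p = 0.0591), but did with DESeq2 (-0.08), with limma voom without scaling or filter (-0.15), with every gene of at least 1 count (-0.13), on TPM (-0.23) and without WT31 library 2 (-0.11) or 3 (-0.10) or WT31_P5IV library 4 (-0.09). Atp5e, the ε subunit, rose from 52.0 to 75.9 CPM to 80.5 to 93.0 CPM (0.42, SE 0.10, adjusted p = 0.00139), and Atp5k, the e subunit in the membrane, rose by 0.36 (SE 0.08, adjusted p = 0.00136).

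The peripheral stalk, which holds the head still while the rotor turns, held the largest fall of all 75 genes. Atp5j (ENSMUSG00000022890.13, chr16:84827866-84835625), which encodes coupling factor 6, was at 158, 149, 147, 164 and 173 CPM in WT31 and at 98.5, 93.6, 98.8, 110 and 98.9 CPM in WT31_P5IV. The groups did not overlap and the log2 fold change was -0.66 (SE 0.05, adjusted p = 4.11e-08), a ratio of 0.631. Atp5j lies head to head with Gabpa, a subunit of GABP, and exons at their 5′ ends overlap on opposite strands, so that 12.7% of the exon bases of Atp5j lie under genes of the other strand and 9.6% of its 31-base words also occur in Gabpa. Gabpa was at 88.9, 102.2, 95.5, 87.1 and 77.6 CPM in WT31 and at 47.7, 48.4, 53.4, 50.9 and 50.3 CPM in WT31_P5IV, and fell by 0.85 on the log2 scale (SE 0.06, adjusted p = 2.1e-08). Whether counting used the strand is not given in the sources used here, and without it reads from the shared bases cannot be told apart. Atp5f1, subunit b, was between 214 and 244 CPM and between 187 and 204 CPM (-0.23, SE 0.04, adjusted p = 0.000191). Atp5o, the OSCP subunit that joins stalk and head, was between 181 and 207 CPM and between 162 and 178 CPM (-0.21, SE 0.05, adjusted p = 0.000746), with 35.6% of its exon bases under genes of the opposite strand. Neither had overlapping groups. Atp5h, subunit d, was the stalk gene that rose, from 137 to 150 CPM to 146 to 168 CPM (0.16, SE 0.04, adjusted p = 0.00404). It did not pass the test without scaling or filter (0.09) or with every gene of at least 1 count (0.10), and its sign turned on TPM (-0.07, not called).

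The c ring, the rotor that turns as protons pass, is built from identical c subunits that 3 genes encode with different import signals. Atp5g2 was at 138, 97.6, 94.2, 187 and 195 CPM in WT31 and at 223, 230, 145, 228 and 228 CPM in WT31_P5IV. WT31 libraries 2 and 3 and WT31_P5IV library 3 were low, the groups overlapped, and the log2 fold change of 0.56 had the largest error of the 75 genes (SE 0.19, adjusted p = 0.0172). Of its 31-base words 37.5% also occur in the pseudogene Gm10175, which was at 71.1, 87.9, 99.5, 45.4 and 47.4 CPM in WT31 and at 62.9, 63.2, 122.7, 59.5 and 59.7 CPM in WT31_P5IV, highest in the same 3 libraries. Added together they came to 213 ± 24.4 CPM in the parental libraries and 284 ± 9.77 CPM in the subline (SD, n = 5 each), without overlap, a log2 fold change of 0.42 (SE 0.06, adjusted p = 3.99e-05). Atp5g3 rose from 215 to 276 CPM to 289 to 300 CPM (0.27, SE 0.06, adjusted p = 0.00168), and Atp5g1 did not pass the test (-0.05, 95% confidence interval -0.18 to 0.08), but was called lower without those 3 libraries (-0.16). Of the TPM of the 3 genes, Atp5g1 held 29.9% to 36.4% in WT31 and 24.5% to 29.5% in WT31_P5IV, so that the groups did not overlap, and its mean share fell by 6.83 percentage points (SD 2.66 and 2.04, n = 5 each). The mean share of Atp5g2 was 6.41 percentage points higher in WT31_P5IV (SD 4.42 and 3.97), with overlap, and that of Atp5g3 was 43.2% ± 1.91 and 43.6% ± 2.08. Gm10175 was not added to Atp5g2 for these shares, which therefore hold the low Atp5g2 values of the same 3 libraries.

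**Figure D4:**
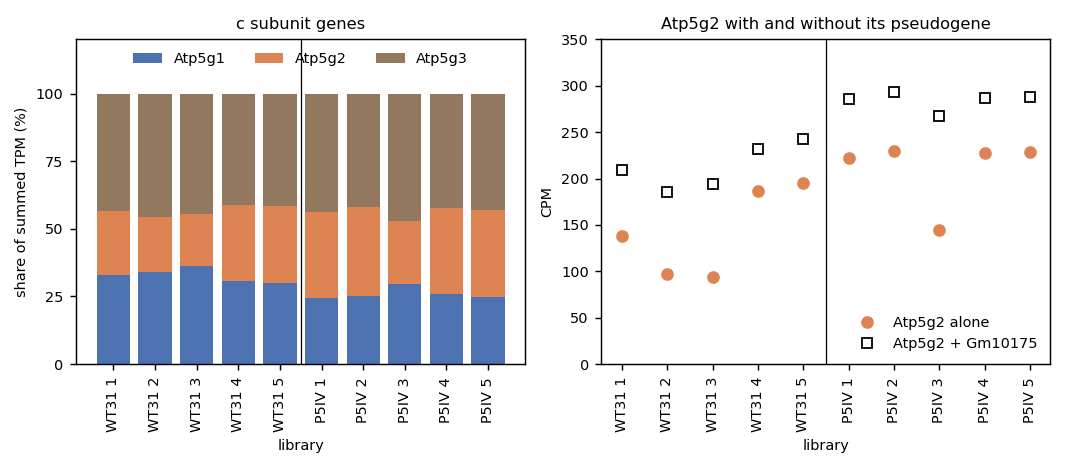
Left, share of each c subunit gene in their summed TPM (%) in each library. Right, CPM of Atp5g2 alone (filled circles) and with its pseudogene Gm10175 added (open squares); alone the groups overlap, and added together all WT31_P5IV libraries (268 CPM or more) are above all WT31 libraries (243 CPM or less).

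The fold changes of the subunit genes were also set beside those of their chromosomes. On chromosome 16 the median log2 fold change of 415 tested genes was -0.42, and the 3 subunit genes there, Atp5j, Ndufb4 and Atp5o, were all lower. On chromosome 6 it was 0.28 over 677 genes, and the 4 there, Ndufa4, Ndufb2, Ndufa9 and Ndufa5, were all higher in the edgeR test. The other chromosomes had medians between -0.13 and 0.08. Among them, chromosome 19 had 4 of 4 subunit genes higher at a median of 0.03, and chromosome 13 had 4 of 6 lower at -0.06. Across the 75 genes the log2 fold change and the chromosome's median had a Pearson r of 0.54 and a Spearman rho of 0.42, as a description, since genes of a chromosome share that median. With the median of up to 10 tested genes on each side, other subunit genes left out, r was 0.34 and rho 0.24. The part of chromosome position in these changes was not tested.

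**Figure D5:**
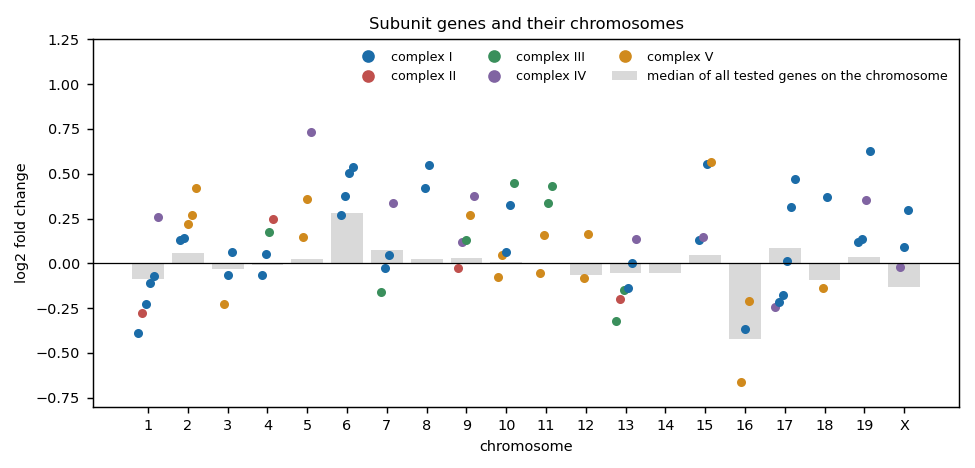
Log2 fold change of each tested subunit gene (points, colored by complex) by chromosome, with the median of all tested genes on that chromosome (grey bars). All 3 genes on chromosome 16 are below 0 (bar at -0.42) and all 4 on chromosome 6 are above 0 (bar at 0.28).

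Most of these genes have short transcripts. On an index of length, the ratio of counts to TPM set to 1 at the median of tested genes, the median was 0.233 over the subunit genes, and 63 of the 75 were among the shortest 20% of tested genes. Of these 63, 36 were higher and 9 lower with a median log2 fold change of 0.14, while of the 2661 other genes of that length 35.5% were higher and 23.2% lower with a median of 0.09. The 12 longer subunit genes had 3 higher and 7 lower. Within the subunit genes, length index and log2 fold change had a Pearson r of -0.42 and a Spearman rho of -0.46, against -0.01 and -0.11 over all tested genes, all as descriptions. After subtraction of the trend on length over all tested genes, the medians of complexes I, IV and V were 0.01, 0.09 and -0.02. The part of length in the result was not tested.

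Other genes of the same pathway were described from lists, to be read beside all tested genes, of which 34.6% were higher and 33.9% lower. Subunit genes outside the rule had 4 of 5 tested higher and 0 lower, among them Cox4i1, the subunit IV of most tissues, at 0.61 (SE 0.06) and Cyc1, cytochrome c1 of complex III, at 0.37 (SE 0.06). All 13 mitochondrially encoded subunit genes were higher, by 0.75 to 1.16 on the log2 scale with a median of 0.83. Assembly factors of complex I had 3 of 17 higher and 6 lower (median 0.05), those of complex II 0 of 4 and 2 (-0.08), of complex III 2 of 6 and 2 (-0.02), of complex IV 5 of 22 and 9 (-0.12), and of complex V 1 of 4 and 2 (-0.22). Among genes of electron carriers and entry points 5 of 17 were higher and 7 lower (-0.03), among mitochondrial ribosomal proteins 27 of 78 and 19 (0.01), and among citrate cycle enzymes 2 of 13 and 7 (-0.08). Of 12 regulator genes 6 were higher and 4 lower (0.10). Nrf1 rose by 0.26 (SE 0.03), Ppargc1a by 0.18 (SE 0.07) and Polrmt, the mitochondrial RNA polymerase, by 0.82 (SE 0.05), while Yy1 (-0.21, SE 0.04), Tfam, which packs mitochondrial DNA (-0.12, SE 0.04), and Tfb2m, a mitochondrial transcription factor (-0.42, SE 0.03), were lower. Of the GABP subunits, Gabpa was lower as given above, Gabpb1 was higher (0.20, SE 0.04, adjusted p = 0.000492) and Gabpb2 did not pass the test (-0.09, SE 0.07).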

How the data were processed

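RNA of 10 cultures, 5 of WT31 and 5 of WT31_P5IV, was sequenced. Reads were trimmed by the authors with Trim Galore 0.6.4 and quantified with kallisto (the submitters' processing notes and the study's methods give different versions) on GRCm38.p6. The authors deposited estimated counts per gene, and TPM values per gene, which divide counts by transcript length and sum to the same total in every library. The annotation release and the strand setting are not given in the sources used here. Symbols and positions came from GENCODE M21, which held 54487 of the 55385 identifiers.

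Estimated counts were rounded, filtered by filterByExpr, scaled by TMM and tested in edgeR 4.0.16 (glmQLFit, glmQLFTest; R 4.3.3) with Benjamini-Hochberg adjustment over 13620 genes. SE is the log2 fold change over the root of F. CPM were computed on TMM-scaled totals. The study's methods used limma voom, an alternative here (limma 3.58.1), as were DESeq2 1.42.0, TPM with pseudocounts of 0.1 and 1, other filters and scalings, and each library left out in turn. On simulated data with 200 of 13620 genes changed for this comparison, edgeR found 61.2% at 1.25-fold, 76.1% at 1.5-fold and 90.9% at 2-fold, with 8 false calls. In the real libraries 68.5% of tested genes passed the test, far more than were changed in the simulation. Its rates of detection and of false calls therefore may not hold for the real comparison. The members and lists were chosen with earlier results of these data known. Genes are named by rule: the 3 largest rises and falls of complexes I, III, IV and V, all of complex II, core subunits, paralogues and untested members. Others named (Atp5h, Atp5s, Atp5mpl, Atp5j2, Uqcrh, Uqcrc1, Cox5a, Cox6c, Cox7c, Ndufb2, Ndufa5, Ndufa9, Ndufs4, Ndufv3, list genes and overlapping genes) were chosen after their values were seen. The values of 1 subunit gene are not reported here.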

Additional observations from a re-analysis of the deposited data

Results flagged for a closer look

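In a check for a library far from the other 4 of its group, made on 106 groups of 5 libraries (tested subunit genes, with all of those named here, in WT31 and in WT31_P5IV), 2 values stood out. Atp5g2 was at 145 CPM in WT31_P5IV library 3 and at 223 to 230 CPM in the other WT31_P5IV libraries. Cox7c was at 176 CPM in WT31_P5IV library 1 and at 196 to 201 CPM in the others. Chance gives such a gap in about 1 in 20 groups, or 5.3 of the 106, which is more than the 2 found. The pseudogene Gm10175, which shares sequence with Atp5g2, was at 122.7 CPM in WT31_P5IV library 3 and at 59.5 to 63.2 CPM in the others.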

How the results depend on the processing

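DESeq2, limma voom with TMM, upper-quartile scaling, the stricter filter, added pseudogene counts and the fits without scaling or filter gave 29 to 40 subunit genes higher and 13 to 19 lower, each within 1.5 times the counts above (39 and 16). On log2(TPM + 0.1) and log2(TPM + 1), 16 were higher and 33 lower, and the medians of complexes I, II, III, IV and V were -0.0717, -0.263, -0.0237, 0.0154 and -0.0688 on the first and -0.0713, -0.261, -0.0236, 0.0153 and -0.0687 on the second. The sign turned for 9 genes called higher, on the first and second to -0.0596 and -0.0593 (Ndufs8), -0.0134 and -0.0134 (Uqcrh), -0.0339 and -0.0337 (Uqcrc1), -0.1187 and -0.1183 (Cox6c), -0.0608 and -0.0607 (Cox7c), -0.0784 and -0.0782 (Cox5a), -0.0373 and -0.0372 (Atp5mpl), -0.0688 and -0.0687 (Atp5h) and -0.064 and -0.0639 (Atp5j2). With limma voom without scaling or filter, the medians of complexes I to V were 0.05, -0.18, 0.09, 0.28 and 0.08. With every gene of at least 1 count they were 0.06, -0.17, 0.10, 0.29 and 0.10. Less the trend on length, an alternative added after the data were seen, complexes I, IV and V stood at 0.0064, 0.0915 and -0.0198. The cause of these differences was not tested. With each library left out in turn, 30 to 40 genes were higher and 15 to 19 lower, and the medians ranged from 0.05 to 0.12 (complex I), -0.14 to -0.11 (II), 0.10 to 0.17 (III), 0.16 to 0.23 (IV) and 0.09 to 0.15 (V). Replicate numbers did not pair the libraries (correlation of deviations -0.10 to 0.18, the best match being the own number for 2 of 5), and with the replicate number as a block 41 genes were higher and 17 lower. Without the 3 libraries lowest on the second principal component, the medians of complexes I to V were 0.01, -0.13, 0.06, 0.12 and 0.05. The lowest tested subunit gene, Atp5s, had 137 to 208 counts in a library, and the untested genes had too few for a fold change.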
